A study of Mus musculus with 4 samples.

Results

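The CCN genes Ccn1, Ccn2, Ccn3, Ccn4 and Ccn5, known earlier as Cyr61, Ctgf, Nov, Wisp1 and Wisp2, encode small cysteine-rich proteins that cells secrete into the matrix. They were taken as every probe set that the platform annotation assigned to 1 of these 5 genes alone, which gave 10 of 45101 probe sets. The 5 genes are among 18193 genes with a probe set of their own. Ccn1 had 4 probe sets, Ccn3 and Ccn4 had 2 each, and Ccn2 and Ccn5 had 1 each. Ccn1 was chosen because its signal was higher in both melanotransferrin clones, so its values across the groups are a description and carry no test. The other 4 genes came in by family membership.

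Total RNA was hybridised to Affymetrix arrays (Mouse Genome 430 2.0), 1 for each of 4 stably transfected lines of LMTK-, a mouse fibroblast line without thymidine kinase. The lines vector 1 and vector 2 carried the empty expression vector pCI-neo. The clones MTf 4 and MTf 6 carried pCI-neo with the cDNA of mouse melanotransferrin, an iron-binding protein held at the cell surface. Each clone is a single line with its own number. Whether vector 1 and vector 2 are separate clones is not stated in the labels, so the spread between them may be technical. The p-values pool that spread with the spread between the clones.

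CCN proteins are matricellular: they do not build the matrix but bind to it, to growth factors and to cell surface receptors such as integrins, heparan sulfate proteoglycans and LRP family receptors. They are assembled from an IGF-binding-protein-like module, a von Willebrand type C module, a thrombospondin repeat and a C-terminal cystine knot, which Ccn5 lacks. In fibroblasts Ccn1 and Ccn2 are immediate-early genes, switched on by serum, by TGF-beta and by mechanical tension through YAP and TAZ with TEAD factors and through SRF. Ccn4 is a Wnt-induced gene, while Ccn3 and Ccn5 are often linked to slower proliferation.

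The promoter of Ccn1 is shown because Ccn1 is the member chosen for its higher signal in the clones, and because lists of TEAD, SRF and immediate-early target genes are described further on. It is the stretch of 250 bases before the start site, at chr3:145649986-145650235 on the minus strand of GRCm38.p6, from RefSeq. Of the 5 genes, 1 had an entry in the promoter table used. Capitals mark the matches to the motifs searched.
Ccn1: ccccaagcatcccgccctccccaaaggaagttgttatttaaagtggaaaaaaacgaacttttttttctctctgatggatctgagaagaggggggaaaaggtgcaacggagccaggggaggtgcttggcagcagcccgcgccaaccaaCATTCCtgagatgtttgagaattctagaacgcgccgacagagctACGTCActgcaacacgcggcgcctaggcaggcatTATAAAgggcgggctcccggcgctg

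Motifs were searched on both strands, and no matches overlapped each other. The TEAD half-site GGAATG occurred once, on the opposite strand, from 103 to 98 bases before the start. It occurred in 12.6% of 32851 promoter windows of the same length. The CRE half-site TGACGT, to which CREB-type factors bind, occurred once on the opposite strand, from 59 to 54 bases before the start, and in 6.47% of all windows. The TATA box TATAAA lay from 25 to 20 bases before the start and was present in 12.4% of all windows. The AP-1 site TGANTCA had 0 matches, against 6.75% of windows with one, and the CArG box, to which SRF binds, had 0 matches, against 1.47%. A match is a description of the letters and not evidence of a bound site. Motifs with 0 matches here may still occur outside these 250 bases, which were the only ones searched.

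The arrays had nearly equal median signals, from 209 to 214, and were used as the authors scaled them. Meltf, the gene of melanotransferrin, gave 265 and 274 in vector 1 and vector 2, and 1519 and 1885 in MTf 4 and MTf 6, in the direction the labels state. Fibroblast markers were present: the lowest signals over the lines were 74441 for Vim and 24406 for Col1a2. Thy1 and Twist1, also on that list, were below the filter on dim probe sets described next. Of 10 fibroblast markers 8 were past it. The summed signal of the 5 epithelial markers was 956 and 691 in the vector lines and 1047 and 1241 in the clones, so it was higher in both clones, as Ccn1 was. Krt8 was the only one of them past the filter and overlapped between the groups, Epcam gave 130 and 40.1 in the vector lines and 326 and 405 in the clones, Cdh1 lay between 6.8 and 102, and no marker was at 0. The part of these signals in the Ccn1 difference was not tested. The sums of the endothelial, blood and macrophage, muscle and melanocyte markers overlapped between the groups. In bulk RNA, fewer cells of a type and less RNA per cell cannot be told apart.

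**Figure D1:**
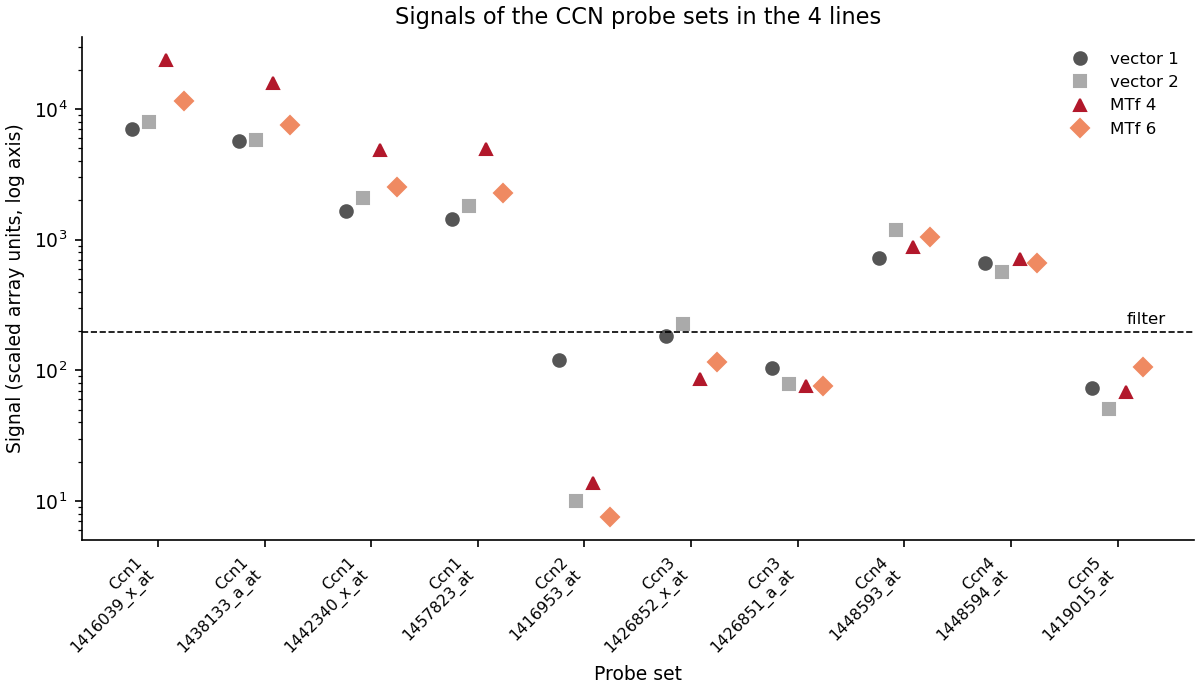
Signals of the 10 CCN probe sets (scaled array units, log axis) in vector 1, vector 2, MTf 4 and MTf 6, with 1 point per array, and the filter at a signal of 196 as a dashed line (a probe set is judged by its mean log2(signal + 32) over the 4 arrays). All 4 Ccn1 probe sets are highest in MTf 4 and next in MTf 6, the Ccn4 probe sets overlap between the groups, and Ccn2, Ccn3 and Ccn5 are below the filter.

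Signals are array brightness on a linear scale. Differences are given on the scale log2(signal + 32), which understates changes of dim probe sets. Only the brighter part of the array was tested, from the median probe set upward by the mean of log2(signal + 32) over the 4 arrays. That median corresponds to a signal of 196, and a probe set that is low in some lines can fail it with a higher plain mean, as Epcam did. This left 22519 tested probe sets, and 6 of the 10 CCN probe sets were past the filter: the 4 of Ccn1 and the 2 of Ccn4. Tests were limma's, MTf minus vector, with Benjamini-Hochberg adjustment over all tested probe sets and a threshold of 0.05. Signals of different probe sets are not set against each other, because brightness depends on the probes.

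Ccn1, which promotes adhesion, migration and matrix turnover in fibroblasts, exceeded both vector lines in each clone by all 4 of its probe sets. By the probe set with the highest mean, 1416039_x_at, signals were 6981 and 8004 in vector 1 and vector 2, and 23817 and 11445 in MTf 4 and MTf 6. MTf 4 stood well above the other 3 lines, and MTf 6 stood above the vector lines by a smaller step. The clones averaged 17631 ± 8749 (SD, n = 2) and the vector lines 7492 ± 724 (SD, n = 2), a log2 difference of 1.14, or 2.20-fold.

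The other Ccn1 probe sets gave the same order of groups. Probe set 1438133_a_at gave 5721 and 5763 in vector 1 and vector 2, and 15675 and 7506 in MTf 4 and MTf 6. The vector lines were nearly equal here, and the log2 difference was 0.91. Probe set 1442340_x_at gave 1651 and 2078 in vector 1 and vector 2, and 4880 and 2520 in MTf 4 and MTf 6, with a log2 difference of 0.91. Probe set 1457823_at was at 1449, 1806, 4936 and 2295 in the same order, with a log2 difference of 1.04. The last 2 were designed from the same source sequence per the platform annotation, so they are not separate views of the transcript. The suffix _x_at marks probe sets of which some probes may also match other transcripts. Probe sets 1438133_a_at and 1457823_at lack it, and what such matches add to the signals was not tested.

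The order of the Ccn1 levels was MTf 4, MTf 6, vector 2, vector 1 by every probe set. MTf 6 and the vector lines were close neighbours: MTf 6 was 1.21-fold to 1.43-fold above vector 2 in signal. Vector 2 was 1.01-fold to 1.26-fold above vector 1. With 1 array per line, these steps have no replicate error of their own. Against the mean of the vector lines, Ccn1 was 2.62-fold to 3.18-fold higher in MTf 4 and 1.31-fold to 1.53-fold higher in MTf 6.

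The clones thus differed from each other about as much as the groups did. Ccn1 signal in MTf 4 was 1.94-fold to 2.15-fold that in MTf 6, a log2 difference of 0.94 to 1.09. Among all tested probe sets, 12.2% were at least 1.5-fold higher in MTf 4 than in MTf 6 on the log2(signal + 32) scale. Meltf ran the other way, with a signal of 1885 in MTf 6 and 1519 in MTf 4, by 1 probe set and 1 array per clone. Whether Ccn1 follows the level of Meltf was not tested. Without MTf 4 the log2 difference of Ccn1 was 0.61 for 1416039_x_at, 0.38 for 1438133_a_at, 0.44 for 1442340_x_at and 0.50 for 1457823_at. Without MTf 6 these differences reached 1.67, 1.44, 1.38 and 1.59.

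**Figure D2:**
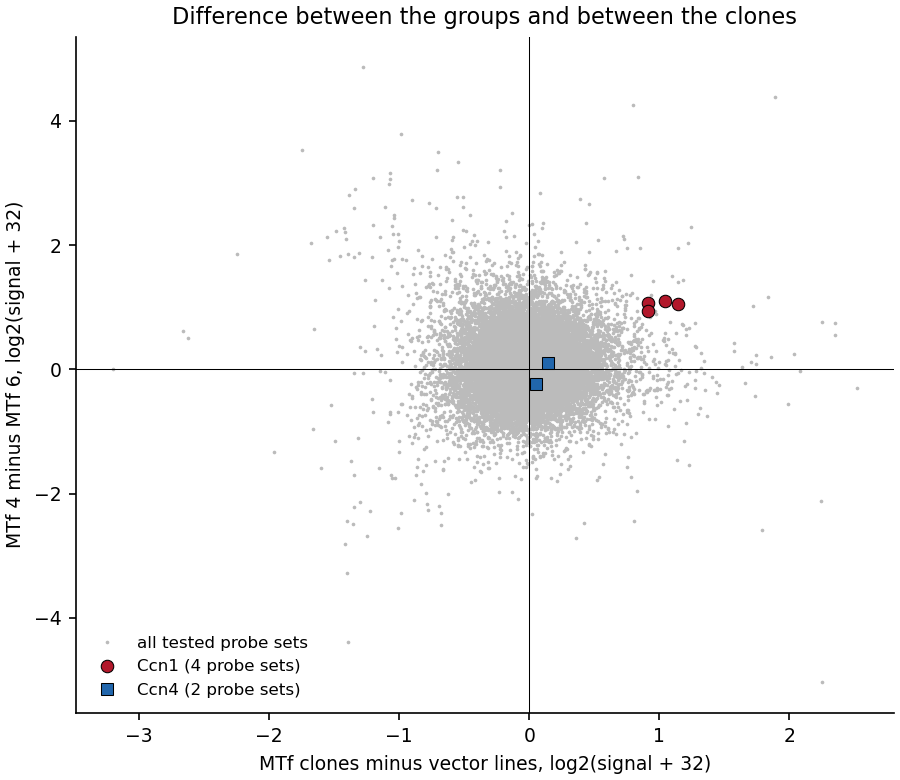
Each grey point is 1 of 22519 tested probe sets, with the log2 difference of the MTf clones minus the vector lines on the horizontal axis and of MTf 4 minus MTf 6 on the vertical axis (both on the log2(signal + 32) scale). The 4 Ccn1 probe sets lie together between 0.91 and 1.14 across and between 0.94 and 1.09 up, and the 2 Ccn4 probe sets lie near 0 on both axes.

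As background, both clones were above both vector lines in 12.2% of the tested probe sets, and at least 1.2-fold above on the log2(signal + 32) scale in 2.05%. Ccn1 was chosen on this contrast, so nothing is read from its place among them. In the fit over all 22519 tested probe sets 1 was called, or 0.00444%, and it was no CCN probe set. Meltf, 5.72-fold higher in the clones, was not called either (limma adjusted p = 0.0903). The absence of a call in this fit therefore does not show the absence of a change. A two-sided exact permutation test of 2 arrays against 2 cannot give a p below 0.333.

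Ccn4, which Wnt signalling induces and which favours survival and growth of fibroblasts, did not differ past the threshold by either probe set. Probe set 1448593_at gave 725 and 1179 in vector 1 and vector 2, and 883 and 1041 in MTf 4 and MTf 6. Both clones lay between the vector lines. The log2 difference was 0.05 (SE 0.28, 95% interval -0.61 to 0.70, limma adjusted p = 1.00), and it was -0.29 without vector 1 and -0.07 without MTf 6. Probe set 1448594_at gave 665, 564, 707 and 658 in the same order, and vector 1 lay between the clones.

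By 1448594_at the log2 difference was 0.15 (SE 0.24, 95% interval -0.41 to 0.70, limma adjusted p = 1.00). The intervals of both probe sets leave room for differences of up to 0.70 upward. The probe sets disagreed on the vector lines: vector 2 was 1.63-fold above vector 1 by 1448593_at, and vector 1 was 1.18-fold above vector 2 by 1448594_at. Of the tested probe sets 7.54% were at least 1.5-fold higher in vector 2 than in vector 1 on the log2(signal + 32) scale. Of the 2 tested probe sets of the genes other than Ccn1, 0 were called by limma, and 0 had an unadjusted p under 0.05.

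Ccn2, connective tissue growth factor and the classic partner of TGF-beta in fibrosis, was below the filter. Its only probe set, 1416953_at, gave 119 and 10.1 in vector 1 and vector 2, and 13.9 and 7.6 in MTf 4 and MTf 6. Only vector 1 stood out, and the other 3 lines were near the bottom of the scale. The log2 difference of -0.91 rested on vector 1, and without that line it was 0.02. Vector 1 was at least 1.5-fold above each other line in 3.25% of all non-control probe sets on the log2(signal + 32) scale. Ccn2 signal was not high in MTf 4, but values this dim cannot show whether Ccn2 followed Ccn1 between the lines.

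Ccn3, which often opposes the growth-promoting members, was also below the filter by both probe sets. Probe set 1426852_x_at gave 185 and 227 in vector 1 and vector 2, and 86.3 and 116 in MTf 4 and MTf 6. The groups did not overlap, the vector lines averaging 206 ± 29.9 (SD, n = 2) and the clones 101 ± 21.3 (SD, n = 2). Both clones were below both vector lines in 15.1% of all non-control probe sets. Its log2 difference was -0.84, and in the fit without the filter the 95% interval was -1.94 to 0.26 (limma adjusted p = 1.00). The other probe set, 1426851_a_at, was at 105, 79.4, 75.8 and 76.7 in the same order, a log2 difference of -0.19. Here too the groups did not overlap, but the clones were only just below vector 2.

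Ccn5, the member without the cystine knot, gave 74.0 and 50.7 in vector 1 and vector 2, and 68.1 and 105.9 in MTf 4 and MTf 6. The groups overlapped, and the log2 difference was 0.33 (95% interval -0.82 to 1.47 without the filter, limma adjusted p = 1.00). Ccn6, the remaining gene of the family and not one of the 5 members, was likewise below the filter, at 142.5, 82.5, 123 and 168 in the same order. Of the 6 probe sets of Ccn2 to Ccn5, 0 were called without the filter by limma and 0 had an unadjusted p under 0.05. Over all 45037 non-control probe sets 0% were called in that fit, and 1608 had an unadjusted p under 0.05.

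The genes whose profile over the 4 lines was nearest to that of Ccn1 were Ppox, Arhgef25, Zdhhc15, Tmem8b and Kcnma1. Nearness is the distance between log2(signal + 32) values after each probe set is centred on its own mean, against 1416039_x_at, and with 4 lines many profiles can lie close. Ppox, an enzyme of heme synthesis, gave 207 and 318 in vector 1 and vector 2, and 768 and 438 in MTf 4 and MTf 6, a distance of 0.33. Arhgef25 gave 262, 418, 887 and 470 in the same order, and its 2 other tested probe sets lay at 0.40 and 1.10. Zdhhc15, a palmitoyltransferase, and Kcnma1, a calcium-activated potassium channel, had distances of 0.41 and 0.42, and Tmem8b 0.41. The other tested probe set of Ppox lay at 2.06 and that of Zdhhc15 at 1.43, so for these genes the profile belongs to a single probe set. The other 3 Ccn1 probe sets lay at 0.13 to 0.26.

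The same measure for Ccn2 gave Sox21, Fndc1, Matn4, Zmat5 and Ints14, at distances of 0.49 to 0.66. Each was highest in vector 1. Sox21, a transcription factor, gave 1016 and 296.5 in vector 1 and vector 2, and 332 and 400.3 in MTf 4 and MTf 6. The Ccn2 profile itself comes from dim values.

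**Figure D3:**
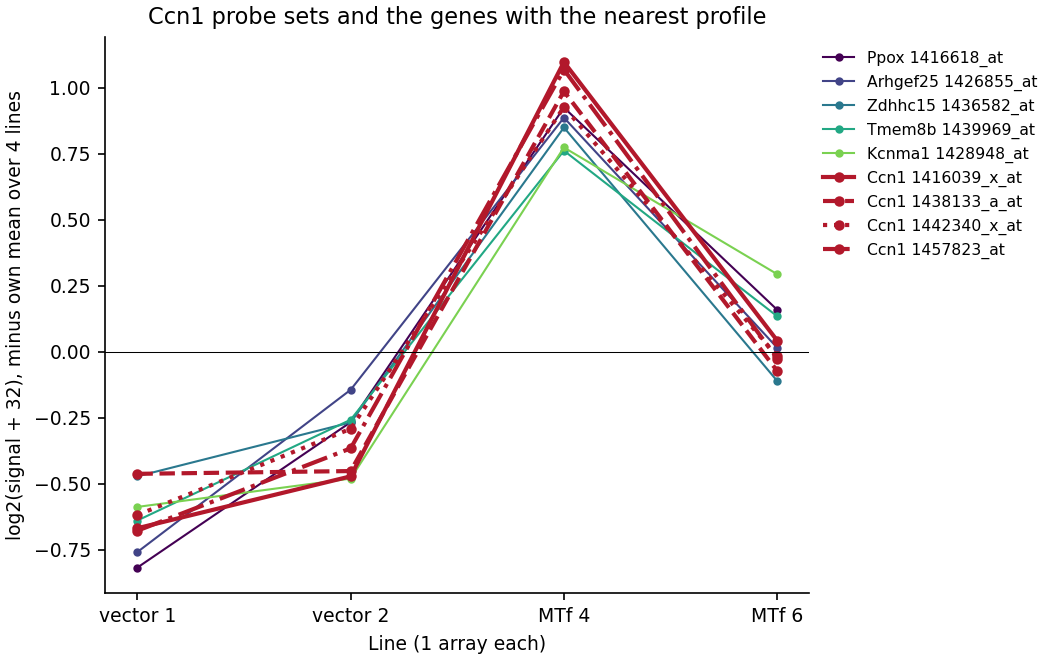
log2(signal + 32) of each probe set minus its own mean over vector 1, vector 2, MTf 4 and MTf 6, for the 4 Ccn1 probe sets (thick lines) and the nearest probe set of each of the 5 nearest genes (thin lines). Every profile shown is highest in MTf 4, with the Ccn1 probe sets within a distance of 0.26 of 1416039_x_at.

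Of 118 genes on 8 lists around the CCN family 115 had a probe set assigned to them alone and 81 were past the filter. Where a gene had several probe sets, the one with the highest mean stood for it. By limma 0 of the 81 were called, and 3 had an unadjusted p under 0.05, against 428 of all 22519 tested probe sets. Both clones were above both vector lines for 17 of the 81 and below for 8, where the shares over all tested probe sets were 12.2% and 13.6%. Those shares count every tested probe set, while each of the 81 is the brightest of its gene, so they are not strictly alike. The median log2 difference over all 10682 tested genes was -0.005, and 49.0% were above 0. In this fit of all 4 arrays every adjusted p of the genes named in the following paragraphs was 1.00, so the values are descriptions. They are differences on the log2(signal + 32) scale.

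Targets of YAP and TAZ with TEAD, the programme best known for driving Ccn1 and Ccn2, had a median difference of 0.10 over 16 tested genes, with 10 above 0. Both clones were above both vector lines for 3 of them and below for 1, against 12.2% and 13.6% of all tested probe sets. Amotl2, a scaffold of cell junctions that restrains YAP, gave 3305 and 4044 in vector 1 and vector 2, and 4533 and 5139 in MTf 4 and MTf 6. Ajuba, an adaptor of junctions, was at 2373, 2403, 2469 and 4321 in the same order. In both genes MTf 6 was the highest line, while Ccn1 was highest in MTf 4. Ankrd1, a nuclear ankyrin repeat protein and a standard reporter of YAP activity, was at 3057, 3637, 3423 and 4929, with MTf 4 between the vector lines. Arhgef17 differed by 0.36, with -0.025 to 0.47 in its 2 other probe sets, and Myof, myoferlin, by -0.30. Ccdc80 differed by 0.95, with a low value in vector 1 alone.

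The factors themselves had differences between -0.28 and 0.34, apart from Tead4 at -1.96. Yap1 and Wwtr1, which encodes TAZ, differed by 0.08 and 0.17, Tead1 by 0.27 and Vgll3, a TEAD cofactor, by 0.34. Second probe sets gave -0.07 for Yap1 and -0.07 for Tead1. The median over the 8 genes was 0.08, with both clones above both vector lines for 5 and below for 1. In these 5 the lower clone was only 1.0005-fold (Yap1) to 1.05-fold (Vgll3) above the higher vector line in signal. Over all tested probe sets the shares were 12.2% and 13.6%. Tead4 gave 2455 and 105 in vector 1 and vector 2, and 62.4 and 206 in MTf 4 and MTf 6, high in a single vector line as Ccn2 was. Without vector 2 Tead4 was called, with a log2 difference of -4.05 (limma adjusted p = 0.0445), a value that rests on vector 1 alone.

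Targets of SRF and its cofactors, the actin-linked programme, had a median of 0.09 over 14 tested genes. Both clones were above both vector lines for 2 of them and below for 2, against 12.2% and 13.6% of all tested probe sets. Cnn2, a calponin of the actin cytoskeleton, gave 9595 and 9792 in vector 1 and vector 2, and 13941 and 11998 in MTf 4 and MTf 6, in the same order of lines as Ccn1. It differed by 0.41. Srf itself was at 1133, 1300, 1772 and 1583, a difference of 0.45 that a second probe set did not share (-0.19). Flna, filamin A, differed by -0.24 and Tpm4 and Tpm1, tropomyosins, by -0.17 and -0.20, with -0.034 to 0.14 in 2 other probe sets of Tpm1. Tagln, Myl9 and Cnn1, contractile genes, were below the filter. Myl9 gave 100 and 96.1 in vector 1 and vector 2, and 20.1 and 20.6 in MTf 4 and MTf 6. Tagln was at 43.6, 136, 12.2 and 36.1. For these dim genes both clones were below both vector lines, as in 15.1% of all non-control probe sets. Cnn1, Fhl1 and Fhl2, the other dim genes of the list, overlapped between the groups. Without the filter the list median was 0.01.

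Immediate-early genes, the class to which Ccn1 belongs, were split in sign. Of 11 tested genes 6 were above 0 and 5 below, with a median of 0.14. Without the filter the median was 0.015. Fosb, below the filter, gave 119 and 187 in vector 1 and vector 2, and 15.6 and 27.1 in MTf 4 and MTf 6. Its difference was -1.78. Atf3 and Egr2, also below the filter, overlapped between the groups. Fosl1, an AP-1 subunit, gave 3234 and 2011 in vector 1 and vector 2, and 976 and 1597 in MTf 4 and MTf 6, the exact reverse of the Ccn1 order of lines. It differed by -1.01, and by -0.61 in its second probe set. Jun, another AP-1 subunit, was at 5077, 5007, 6431 and 6878, a difference of 0.40, and 0.55 in its second probe set. Klf4, a zinc finger factor, differed by 0.55, and by 0.265 in its second probe set. Dusp1, a phosphatase of MAP kinases, also differed by 0.55. It gave 3161 and 5892 in vector 1 and vector 2, and 9432 and 4254 in MTf 4 and MTf 6, so MTf 6 lay between the vector lines. Egr1, a serum-induced factor, differed by -0.25. Both clones were above both vector lines for 3 of the 11 and below for 2, against 12.2% and 13.6% of all tested probe sets.

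TGF-beta signalling and its targets had a median of -0.03 over 13 tested genes. In 1 gene both clones were above both vector lines and in 1 below, against 12.2% and 13.6% of all tested probe sets. The list was split by line rather than by group, as some others were. Its median deviation from the mean of the 4 lines was 0.30 in MTf 4 and 0.20 in vector 2, against -0.23 in MTf 6 and -0.21 in vector 1. In the same order of lines the SRF targets gave 0.14, 0.016, -0.053 and -0.031. Ligand and matrix partners gave 0.131, 0.015, -0.143 and -0.085. The Wnt targets and the YAP and TAZ targets had MTf 6 above MTf 4 instead. Tgfb3, a TGF-beta ligand, gave 85.7 and 426 in vector 1 and vector 2, and 639 and 261 in MTf 4 and MTf 6. Tgfbr2, the type II receptor, was at 3569, 5143, 5756 and 2902. With 1 array left out the list median ranged from -0.198 to 0.204. Among the Wnt targets 3 of 13 were past the filter: Nkd1 differed by 0.54, Ccnd1 by -0.28 and Axin2 by -0.04, with a median of -0.04. Both clones were above both vector lines for Nkd1 and below for Ccnd1, a cyclin of the cell cycle.

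Genes of CCN receptors had a median of 0.07 over 10 tested genes. In 2 of these both clones were above both vector lines and in 0 below, against 12.2% and 13.6% of all tested probe sets. Itgb5, the integrin subunit beta 5, gave 6981 and 6599 in vector 1 and vector 2, and 8048 and 8235 in MTf 4 and MTf 6, a difference of 0.26, and 0.23 to 0.34 in 3 further probe sets. Itga6, a partner of integrin beta 1 and a receptor for Ccn1 on fibroblasts, differed by 0.13. Lrp1, an endocytic receptor, was at 5210, 2353, 6874 and 3215, a difference of 0.42 against -0.18 in its second probe set. Sdc4, a heparan sulfate proteoglycan, differed by -0.15, against 0.36 in its second probe set. The integrin subunit genes Itgav and Itgb1 differed by 0.06 and -0.06, and their other probe sets gave -0.16 to 0.18 and 0.08 to 0.21. For Lrp1, Sdc4, Itgav and Itgb1 the probe sets thus did not share a sign. Among ligand and matrix partners of CCN proteins, 6 of 12 were past the filter, with a median of 0.04 and 0 without overlap. Fn1, fibronectin, was at 24584, 35814, 56426 and 31986, highest in MTf 4 as Ccn1 was, but with MTf 6 between the vector lines.

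**Figure D4:**
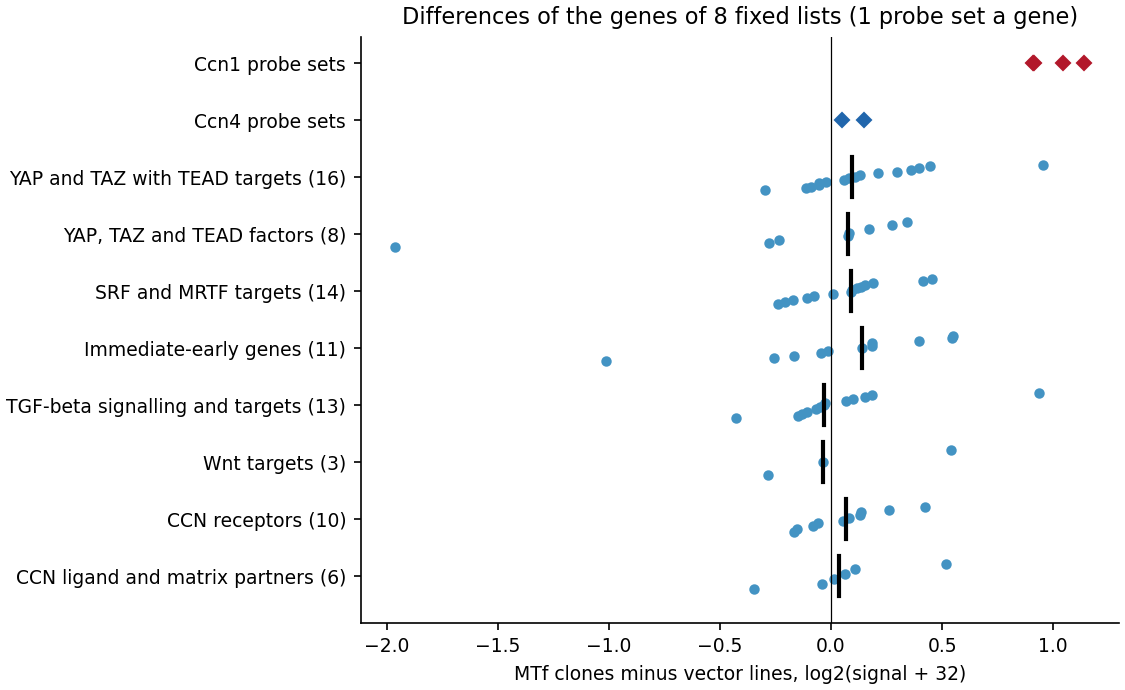
Differences of the MTf clones minus the vector lines on the log2(signal + 32) scale for the tested genes of 8 lists (1 point a gene, number of genes in brackets, black bar the median), with the Ccn1 and Ccn4 probe sets on top. The list medians lie between -0.04 and 0.14, the Ccn1 probe sets between 0.91 and 1.14, and Tead4 at -1.96 and Fosl1 at -1.01 are the lowest points.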

How the data were processed

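The authors made the deposited intensity values with GCOS 1.3, per the submitters' processing notes. They are linear, with a value for each probe set on each array. The software's settings are not given in the labels. The trimmed means of the 4 arrays were equal, and no further scaling was done. Control probe sets (64) were left out, and 45037 remained. Gene names came from the platform annotation, updated through gene identifiers to a RefSeq table of GRCm38.p6. It paired 34945 probe sets with 1 gene, 932 with several and 9160 with none. Of those with 1 gene, 34741 were found in the RefSeq table.

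Groups were compared with limma 3.58.1 under R 4.3.3, using lmFit and eBayes with a trend, on log2(signal + 32) over 22519 probe sets with a mean at or above the median. Members and lists were chosen with earlier results of these data known. Named genes were all CCN probe sets, up to 6 genes a list with the smallest unadjusted p, and the 5 nearest profiles. List genes named beyond these were chosen after their values were seen. On simulated data for MTf minus vector (22519 probe sets, 200 changed, 10 simulations) the fit recovered 8.20% of 2-fold, 69.3% of 4-fold and 97.6% of 8-fold changes, and 5.71% of its calls were false. The simulated noise was normal and independent between probe sets, and the number of true changes in the real data is not known. These rates may thus not hold for the real data, where Meltf at 5.72-fold was not called. Alternatives were the offset, the filter, quantile normalization, no trend, the probe set chosen for a gene and each array left out. The number of arrays limits the precision.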

Additional observations from a re-analysis of the deposited data

How the results depend on the processing

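With 1 array left out the Ccn1 differences, whose sign the choice of Ccn1 fixes, ranged over 0.61 to 1.67 for 1416039_x_at, 0.38 to 1.44 for 1438133_a_at, 0.44 to 1.38 for 1442340_x_at and 0.50 to 1.59 for 1457823_at, and offsets of 16 and 64 and quantile normalization gave 0.90 to 1.14 over the 4. Fits with 1 array in a group assume that it varies like the rest. The Ccn4 probe set 1448593_at ranged from -0.29 to 0.39 and changed sign. The cause was not tested. The count of called probe sets, 1, was 0 without the filter, 0 without the trend and 2 to 25 with 1 array left out. The Ccn2 difference of vector 2 minus vector 1, -1.85, was -2.38 with an offset of 16 and -1.31 with 64, as the offset sets how far dim values spread.

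List medians with 1 array left out ranged from 0.012 to 0.294 for YAP and TAZ targets, -0.075 to 0.198 for SRF targets, -0.021 to 0.181 for immediate-early genes, -0.198 to 0.204 for TGF-beta signalling, 0.054 to 0.104 for TEAD factors, -0.18 to 0.35 for Wnt targets, -0.069 to 0.071 for receptors and -0.11 to 0.14 for partners. Of genes on the lists, 0 to 1 were called among the TEAD factors (Tead4, without vector 2) and 0 in the other lists. Immediate-early genes had a median of 0.015 without the filter, with more genes read. The TEAD factor median was 0.042 when each gene was the median of its probe sets. No paired analysis was possible because the groups share no replicate numbers.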
